A study of Caenorhabditis elegans with 2 samples.

Results

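The regions described here are the 261 peaks, of 2228 in the pooled list, whose summit lay in an exon of a protein-coding gene and away from gene starts. A peak was counted when its summit fell in coding sequence or in an untranslated region (UTR) of a protein-coding transcript. It was left out when the summit was no more than 1000 bp ahead of the 5' end of a protein-coding gene or up to 200 bp past it, or within 100 bp of a tRNA gene. These borders removed 167 further exon summits in 5' end windows and 6 near tRNA genes. Windows drawn at the 5' ends of all kinds of gene, non-coding ones included, left 228 exonic peaks. The peaks came from chromatin immunoprecipitation and sequencing with an anti-GFP antibody in whole Caenorhabditis elegans L4 larvae. All worms were strain RW12291, whose allele st12291 is a CRISPR insertion of TY1, EGFP and 3xFLAG tags at the gene Y48G9A.11 on chromosome III. They were collected at 47.5 h after synchronisation by bleaching and starvation at L1, and the 2 samples were biological replicates of this 1 group, so no condition was compared with another. Whole worms mix all tissues, and the line is a single insertion allele.

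In the compact genome of C. elegans most known binding sites of transcription factors lie just upstream of genes or in introns, and exons hold mainly the code for protein. Neighbouring genes on opposite strands often run towards each other, and their 3' ends then lie close together or overlap. A summit in an exon of one gene can therefore also lie just past the end of another. The signal value is the authors' measure of enrichment per peak, with no unit given, and the pooled value was about the sum of the replicates' values (median ratio of the sum to the pooled value 1.02 over the 215 exonic peaks with a value in both). A candidate is any peak of the authors' ranked list, and a listed peak is one that they kept in the thresholded list. All listed peaks passed a threshold on the irreproducible discovery rate (IDR), which compares the ranks of peaks between lists. A further 73 candidates passed the same threshold and were not in that list, 4 of them exonic and none of these within 200 bp of a gene's 3' end. The step that left them out is not given in the sources used here.

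The bases at the summits of 5 of the 7 strongest coding-exon peaks are shown. None of the 7 carried the 6-mer that led in the other listed peaks, the 2 not shown (tmem-107 and lmd-2) included. Each line gives 30 reference bases around the summit on the strand of the host gene, for dos-3 (chrIII:835944-835973), W09D6.5 (chrIII:11091170-11091199), best-18 (chrIII:10214688-10214717), chmp-7 (chrII:9056377-9056406) and Y43F8C.6 (chrV:19636249-19636278), all in ce11. The small nuclear RNA gene sls-2.15 lies within 100 bp of the W09D6.5 summit. None of these 5 peaks held ACGCGC within 50 bp of the summit on either strand. The shorter CGCG stood within 50 bp of the summit in 2 of them, dos-3 and W09D6.5, outside the 30 bases around it. Those stretches, dos-3 at chrIII:835984-836013 and W09D6.5 at chrIII:11091219-11091248, both read on the plus strand, follow the first 5 lines with CGCG in capitals.
dos-3: cacccggaatccgtgaacgtggattggctc
W09D6.5: gtgttggccgagtgcaagtgacatgcggca
best-18: ctggctcgccaacaaatacaccgattgaac
chmp-7: acaaagaagtaacgccagaagaggatcaat
Y43F8C.6: agcttcaggaccatcttcaagtgctccggg
dos-3 second stretch: ttgttagcatgatCGCGattatgtgggtca
W09D6.5 second stretch: gctcaatgatctcCGCGaatgcccgaatcc

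The next lines show intronic peaks of the same list that carried ACGCGC, in capitals, with 30 bases on the strand that reads it. They lay in Y69A2AR.1 (chrIV:2668333-2668362, signal 749.6), frm-7 (chrV:12303663-12303692, signal 547.0) and mdt-26 (chrII:5661798-5661827, signal 485.2). ACGCGC was the 6-mer whose share at the summits of all other listed peaks stood furthest above its share in their flanks.
Y69A2AR.1: gcgctaaacaacACGCGCcggcggaatttc
frm-7: acccttttaactACGCGCgggggtcgaacc
mdt-26: aaagccaccaacACGCGCttttttttaccc

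The last lines show coding-exon peaks with CGCCGA, in capitals. Ranked by the share at summits minus that in flanks, CGCCGA was 1 of 5 6-mers that tied for first in the exonic peaks themselves, at 7.28 percentage points. They lay in cpt-1 (chrII:12795270-12795299, signal 139.5), which encodes a carnitine palmitoyltransferase, in hmt-1 (chrIII:11091743-11091772, signal 127.4), an ABC transporter for heavy metals, and in sqv-6 (chrV:956574-956603, signal 125.3), an enzyme of glycosaminoglycan synthesis. These 3 are among the strongest coding-exon peaks with that 6-mer.
cpt-1: tgatatggagcaCGCCGAgccacaattttg
hmt-1: ggaagcacaaatCGCCGAgcaacgtgccaa
sqv-6: tcatcgaaatctCGCCGAattttcgatttc

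Within 50 bp on either side of the summit, ACGCGC was found in 3 of 261 exonic peaks (1.15%, 95% interval 0.238 to 3.32) and in 0.96% of their flanks, which were stretches of 100 bp from 250 to 350 bp on either side. The share was 12% in all other listed peaks (flanks 1.14%), 10.6% in intronic peaks and 0.92% in exonic candidates that were not listed. The 3 exonic peaks with it were in znf-782, vab-10 and lin-56. The shorter CGCG, which is part of ACGCGC, stood in 16.5% of exonic peaks (43 of 261, 12.2 to 21.5), in 43.4% of other listed peaks and in 11.8% of unlisted exonic candidates. The 8-mer that led in other peaks away from tRNA genes, ACACTCCG, occurred in 5.93% of those and in 2 exonic peaks (0.766%), in znf-782 and eef-2. A match is a description of these letters only.

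Of the 5 tied 6-mers, CGCCGA stood in 9.96% of exonic summits against 2.68% of flanks, and GGAGCC stood in 11.1% against 3.83%. In exonic candidates that were not listed their shares at the summit were 5.08% and 5.89%. The share at exonic summits was 11.5% for CGGAGC, while in the unlisted candidates it was 6.59%. For CTCGGC the same shares were 9.96% and 4.61%. The last of the 5, CCACCG, stood in 10.3% and 4.71%. In coding-exon peaks CGCCGA reached 12%, and none of the 42 peaks in 3' UTRs held it. Since these 6-mers were chosen in the members, their shares there support nothing further.

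The 261 exonic peaks lay mostly in coding sequence. There were 200 in coding exons (76.6%), 42 in 3' UTRs, 18 in 5' UTRs and 1 in an exon outside these classes, in C06E7.4. Of the 27328 candidates that met the same position rule, 0.955% were listed (0.843 to 1.08, exact Clopper-Pearson interval), against 2.38% of all 93610 candidates. The share was 1.29% for intronic candidates, 2.08% for intergenic ones, 3.76% in a 5' end window on one strand and 13.6% where windows of both strands met. Among exonic candidates it was 0.804% in coding exons, 2.32% in 3' UTRs (1.68 to 3.12) and 2.90% in 5' UTRs (1.73 to 4.54). Per megabase of sequence open to the rule, 9.96 peaks were listed in coding exons, 17.7 in 3' UTRs and 32.1 in 5' UTRs, beside 12.1 in introns and 14.9 between genes. Intervals cover counting error only and treat peaks as independent.

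The strongest exonic peak was at pck-2, which encodes a phosphoenolpyruvate carboxykinase of gluconeogenesis. It lay at chrI:7868987-7869232 in a 5' UTR, with a pooled signal of 320.2, of 171.2 in replicate 1 and of 150.2 in replicate 2. Its summit was in the window of another transcript's 5' end, which the gene-level borders did not remove. Of the 30-mers around this summit, 73.6% occurred more than once in the genome, which was so for at least 50% of the 30-mers in 2 exonic peaks, this one and iars-2. At znf-782, a zinc-finger gene, the peak in the 3' UTR (chrIV:1058609-1058784) reached 318.6, with 176.9 in replicate 1 and 142.8 in replicate 2. The strongest peak in coding sequence was in the last exon of dos-3 (chrIII:835867-836042), of the family that includes Notch co-ligands, with 311.7 pooled, 162.3 in replicate 1 and 161.8 in replicate 2. All 3 stood well above the fourth, at Y92H12BR.7, with 238.5.

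Most exonic peaks were far weaker than these. Their median signal was 103.4 (quartiles 92.5 and 120.2), beside 132.3 for all 2228 listed peaks, 123.3 for intronic, 125.7 for intergenic and 175.1 for peaks in windows of both strands. The median was 101.7 in coding exons, 118.3 in 3' UTRs and 103.7 in 5' UTRs. Of the 20 strongest, 9 were in 3' UTRs, 7 in coding exons and 4 in 5' UTRs, and 18 were in the thresholded lists of both replicates. All 20 were in the list of replicate 1, and lmd-2 was one of the 2 that replicate 2 did not list, with 119.5 in replicate 1 and 55.3 in replicate 2. Further members of the 20 were lin-66 (169.6) and lin-29 (159.6), both of the heterochronic pathway that times larval development, chmp-7 (168.6), an ESCRT-III related gene, and tmem-107 (186.2), a gene of the ciliary transition zone.

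**Figure D1:**
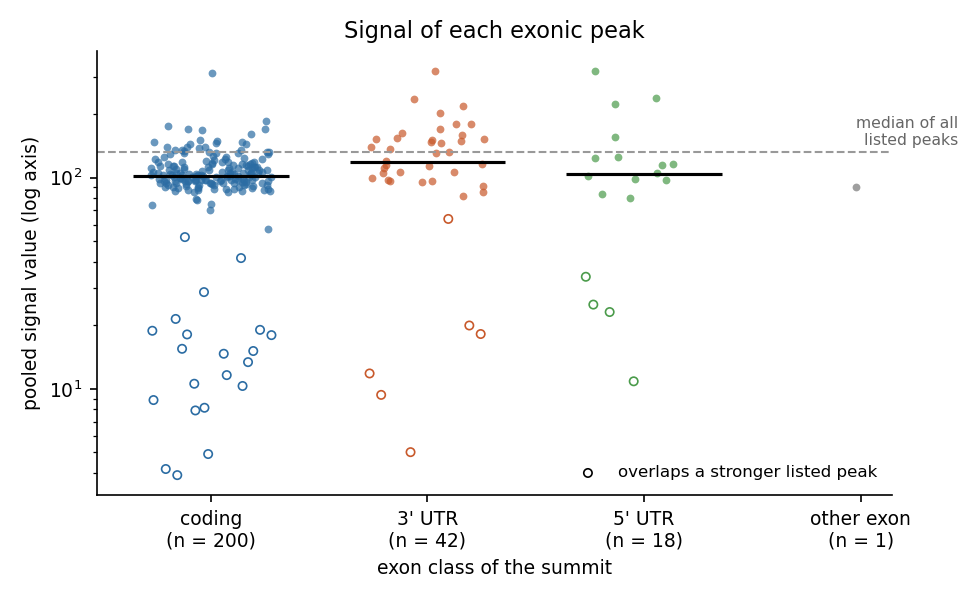
Pooled signal value of each of the 261 exonic peaks on a log axis, by exon class of the summit, with the class median as a black line and the median of all 2228 listed peaks (132.3) dashed. Open circles are the 31 peaks that overlap a stronger listed peak; they fall below 64, and all filled points lie above 57.

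A group of 31 exonic peaks overlapped a stronger listed peak (11.9%), against 4.89% of all listed peaks. Their signals ran from 3.91 to 63.8 with a median of 15.1. Their summits lay 199 to 259 bp from that of the stronger peak, which was itself exonic in 14 cases, intronic in 10 and near a tRNA gene in 4. None of the 224 exonic peaks with a signal of 80 or more overlapped a stronger peak.

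Exonic peaks lay towards the 3' ends of their genes. Last exons held 112 of the 261 (42.9%), beside 18.5% of exonic candidates that were not listed, and the median summit stood 77.6% of the way along its gene, against 58.1%. Within 200 bp of the gene's 3' end lay 59 peaks (22.6%, against 6.37% of unlisted candidates). Of all exonic candidates there, 3.31% were listed (2.53 to 4.25), of those 200 to 500 bp away 1.54% (1.15 to 2.02), and of those 500 to 1000 bp away 0.625% (0.405 to 0.922). From 1000 to 2000 bp the share was 0.749% and beyond 2000 bp it was 0.654%. In coding exons alone the shares were 3.06%, 1.57%, 0.596%, 0.667% and 0.567%. Replicate 1's own list had 2.22%, 0.601%, 0.240%, 0.225% and 0.244% over the same distances, and that of replicate 2 had 1.52%, 0.505%, 0.177%, 0.251% and 0.209%. In each of these series the first share was the highest, the second came next, and the last 3 were close together with overlapping intervals. In replicate 1, 60.4% of 106 listed exonic peaks lay in last exons, against 19.5% of its unlisted candidates, and in replicate 2 it was 51.1% of 90 against 19%.

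Most of the peaks at 3' ends lay where the next gene ran the other way and ended close by. Of the 59, the next protein-coding gene past the 3' end was on the opposite strand for 54 (91.5%, 81.3 to 97.2), against 64.6% of the 1723 unlisted candidates at such ends. The gap to it had a median of -3.5 bp, which means that the genes abutted or overlapped, against 139 bp for unlisted candidates. The comparison with genes on the same strand is limited by the rule, since a close gene on the same strand would place the summit in a 5' end window. Among ends with a gene on the opposite strand this does not apply. There, 6.79% of candidates were listed where the genes overlapped (30 of 442), 8.51% where they were under 100 bp apart (12 of 141), 3.88% from 100 to 500 bp (8 of 206) and 1.06% at 500 bp or more (4 of 378, 0.289 to 2.69). In coding exons, 28 of 396 candidates (7.07%, 4.75 to 10.1) were listed at pairs that overlapped or lay under 500 bp apart, and 1 of 552 at all other 3' ends (0.181%, 0.00459 to 1.01). In 3' UTRs the difference was smaller, with 21 of 390 (5.38%, 3.36 to 8.11) against 8 of 431 (1.86%, 0.805 to 3.62), and these intervals overlapped.

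Each replicate's own list held the same pattern. At overlapping or close pairs replicate 1 listed 34 of 840 candidates (4.05%, 2.82 to 5.61), against 6 of 958 at other 3' ends (0.626%), beside 1.55% of all its candidates. Replicate 2 listed 23 of 722 (3.19%, 2.03 to 4.74), against 3 of 993 (0.302%), beside 1.32% of all its candidates. Outside exons, intergenic candidates between genes that run towards each other were listed in 3.76% of cases (120 of 3193, 3.13 to 4.48). Between genes on the same strand it was 1.87%, and between genes that run apart 1.35%. The rule limits this comparison too, since summits up to 1000 bp ahead of a 5' end were not classed as intergenic. Between genes that run towards each other, neither 5' end faces the gap. Where windows of both strands met, 13.6% of candidates were listed.

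**Figure D2:**
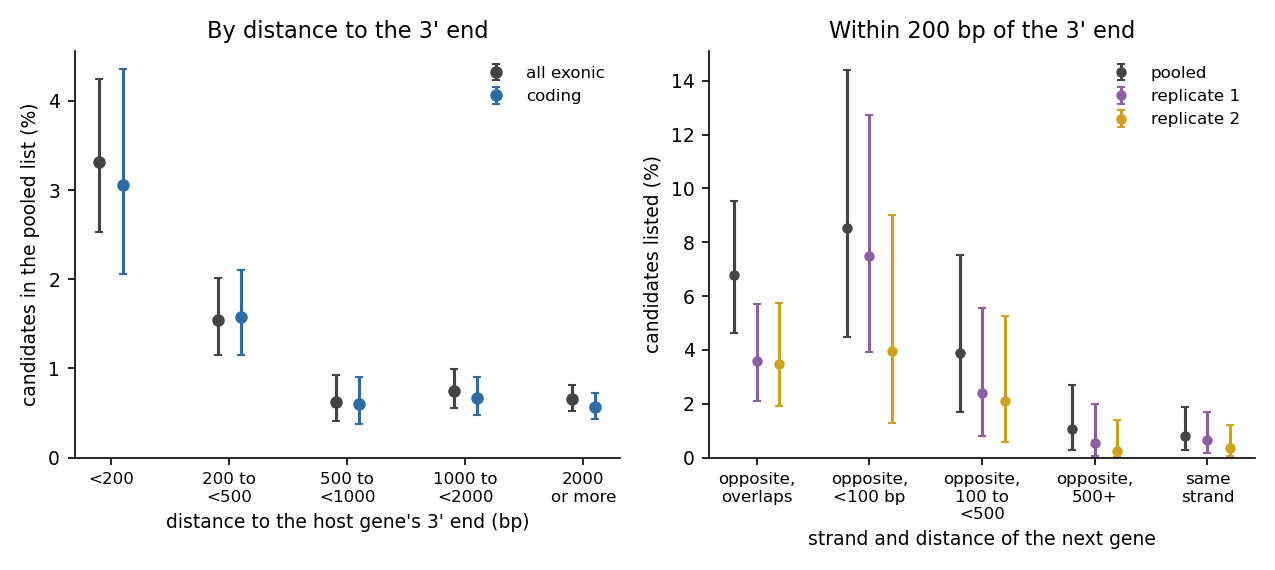
Share of exonic candidates that were listed, with exact 95% intervals. Left, by distance to the 3' end of the host gene, for all exonic candidates and for coding exons; right, for candidates within 200 bp of the 3' end, by strand and distance of the next gene, in the pooled list and in each replicate's own list. The left panel falls from 3.31% next to the 3' end to 0.625% at 500 to 1000 bp, and the right panel is highest where genes on opposite strands overlap or lie under 100 bp apart.

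The 50 peaks at such close or overlapping pairs, 28 in coding exons and 21 in 3' UTRs, had a median signal of 120.6, beside 101.3 for the other 211 exonic peaks. Of the 50, 12 were in both replicates' lists (24.0%, 13.1 to 38.2) and 13 in neither, against 24 (11.4%, 7.43 to 16.5) and 130 of the 211. None of the 50 was on the X chromosome, beside 15 of the other 211. The number of candidates on X at such pairs is not given here, so this count has no share beside it. They came from 46 distinct gene pairs of 715 with a candidate (6.43%, 4.75 to 8.49), since 4 pairs held a peak in both genes, and 3 of the 50 overlapped a stronger peak.

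The gene that ended across from the host was a cytosolic ribosomal protein gene for 8 of the 50 peaks and a translation factor gene for 2. The 3' end of eef-1A.1, a gene for the translation elongation factor eEF1A, overlapped that of F31E3.12 by 77 bp, and both carried a peak. The summit in the 3' UTR of F31E3.12 had 236.8 pooled, 112.6 in replicate 1 and 114.9 in replicate 2. The one in the coding sequence of eef-1A.1 had 137.7 pooled, 66.3 in replicate 1 and 64.4 in replicate 2. These summits lay 202 bp apart. The peak in F31E3.12 was in both replicates' own lists, and that in eef-1A.1 was in neither. Counting both genes of a pair, 10 of 20 candidates at pairs with a cytosolic ribosomal protein gene were listed (50%, 27.2 to 72.8), against 40 of 769 at pairs without one (5.20%, 3.74 to 7.02). By distinct pairs, 10 of 16 with a ribosomal protein gene held a listed peak (62.5%, 35.4 to 84.8). Of the other lists, pairs with a translation factor gene had 2 of 5, those with a chaperone gene 3 of 13, proteasome and ubiquitin genes 3 of 13, Argonaute and small RNA genes 4 of 18, chromatin genes 2 of 8 and nuclear hormone receptors 3 of 15. Of the 24 lists with a candidate at such pairs, 12 had none listed, among them cuticle collagens (0 of 9 pairs), germ line and oocyte genes (0 of 15), splicing factors (0 of 10) and mitochondrial ribosomal proteins (0 of 6). The lowest upper bound among these 12 was 19.5%, so none of them can be told from the 6.43% of all pairs at these numbers. The counts by pair were added after the values had been seen.

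Most of the ribosomal protein genes concerned were not the host of the peak. Of the 10 exonic peaks within 300 bp of a ribosomal protein gene's 3' end, 8 lay past that end, in an exon of the gene across from it, and 2 lay within the ribosomal protein gene, in the 3' UTRs of rpl-3 and rps-7. The distance past the end was 160 bp for rpl-4 (in lmd-2), 105 bp for rpl-32 (in chmp-7), 187 bp for rpl-14 (in C04F12.5) and 99 bp for rpl-30 (in madf-10). It was 93 bp for rps-1 (in ins-17), 116 bp for rpl-28 (in R11D1.13), 181 bp for rpl-38 (in lgc-31) and 214 bp for rpl-33 (in F10E7.9). Apart from rpl-3, rpl-4 and rpl-32, whose peaks were among the 20 strongest, these genes are named for their place and were chosen after the values had been seen.

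The peak at rpl-3 (chrIII:3869358-3869681) had 180.5 pooled, 87.1 in replicate 1 and 108.3 in replicate 2. That in chmp-7, past rpl-32, had 168.6 pooled, 78.9 and 83.3. That in F10E7.9, past rpl-33, had 145.0 pooled, 66.7 and 64.7. These 3 were in the lists of both replicates, 6 of the other 7 were in that of replicate 1 only, and the weakest, at rps-7 with 95.1 pooled, was in neither. For rps-1 the values were 96.3 in replicate 1 and 53 in replicate 2, and for rpl-30 they were 82.9 and 52.6.

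Taken over all genes whose 3' end lay outside 5' end windows, 10 of 41 cytosolic ribosomal protein genes had an exonic peak within 300 bp of that end (24.4%, 12.4 to 40.3), against 1.13% of 13448 protein-coding genes. With intronic and intergenic peaks included it was 25 of 41 (61%, 44.5 to 75.8), against 2.34% of all. The list of replicate 1 gave 23 of the 41 and that of replicate 2 gave 11, against 1.40% and 1.15% of all genes. Translation factors had an exonic peak at 4 of 15 ends, proteasome and ubiquitin genes at 5 of 39, Argonaute and small RNA genes at 5 of 50, and chaperones at 4 of 45. Cuticle collagens, the main structural proteins of the worm's outer layer, had no listed peak of these classes at any of 140 ends. The upper bound was 2.60%, above the 2.34% of all genes. F-box, MATH and BATH genes had none at 278, and chemoreceptor genes 3 at 897. The lists differed in how many ends had a candidate. For ribosomal proteins it was 38 of 41, for collagens 61 of 140 and for all genes 5703 of 13448. For F-box, MATH and BATH genes it was 98 of 278, and for chemoreceptors 190 of 897. Expression was not measured in these samples.

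By host gene, the 261 peaks fell in 241 genes, which is 2.38% of the 10122 protein-coding genes with an exonic candidate. No gene had more than 2 exonic peaks, and 21 had 2. In 8 of these both peaks had a signal of 50 or more, among them mnk-1 (124.7 and 105.8), a kinase gene, crh-1 (121.4 and 104), which encodes CREB, egl-8 (114.2 and 103.8), a phospholipase C gene, and ubq-1 (105.4 and 90.8), the polyubiquitin gene.

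The lists of host genes were small, and the intervals of most held the share of all genes. Splicing factors had a peak in 5 of 52 genes (9.62%, 3.20 to 21), led by rsp-3 (149.2 pooled, 103.9 in replicate 1, 40.2 in replicate 2), an SR protein gene, with rsp-8 (101.3) and sap-140 (96). The weakest of these 5 peaks overlapped a stronger listed peak in a 5' end window. The interval without that gene was not computed, so whether it would hold the share of all genes was not tested. Translation factors had 3 of 32, in eef-1A.1, eef-2 (92.5) and eif-2Bdelta (92.0), and ribosomal proteins 2 of 20. Argonaute and small RNA genes had 3 of 64, all with known roles in germ-line small RNA pathways. They were ekl-1 (219.7 pooled, 92.1 and 136.0 in replicates 1 and 2), hrde-1 (145.5 pooled, 63.6 and 102.0) and csr-1 (85.8).

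Cuticle collagens had 5 of 118, all in coding sequence and none in both replicates' lists, led by col-124 (114.9), col-101 (111.5) and col-140 (103.5). Nuclear hormone receptors had 5 of 144, led by nhr-114 (109.7), nhr-61 (108.8) and nhr-225 (92.7). The weakest peak of that list overlapped a stronger intronic one. Other transcription factors had 3 of 140, at lin-29, crh-1 and hlh-30 (111.6), the TFEB gene. Channels and synaptic genes had 3 of 132, led by twk-49 (134.9), a potassium channel gene, and lgc-31 (132.2). The latter is a ligand-gated channel gene whose peak lay past rpl-38. In this list the weakest peak overlapped a stronger one near a tRNA gene. The symbol pattern for chemoreceptors gave 3 of 354, at srz-83 (111.4), src-2 (94.3) and srxa-8 (5.02). Of these, src-2 is a Src-family kinase gene, and the srxa-8 peak overlapped a stronger one near a tRNA gene. F-box, MATH and BATH genes had 1 of 199 (bath-44, 106.6) and C-type lectins 1 of 140 (clec-78, 112.2).

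Tubulins, kinesins and dynein had 2 of 37, at tbg-1 for gamma-tubulin (102.2) and klp-7 for a kinesin-13 (100.5). Proteasome and ubiquitin genes had 2 of 53, at ubq-1 and rpt-3 (8.14). The rpt-3 peak overlapped a stronger one in a 5' end window. Chaperones had 2 of 59, at hsp-1 (111.6) and hsp-6 (89.8), germ line and oocyte genes 2 of 97, at car-1 (148.0) and cpg-1 (112), and signalling kinases and phosphatases 2 of 61, at kin-18 (152.2) and daf-2, the insulin receptor gene (102.6). RNA polymerase, TAF and Mediator genes had 2 of 36, at mdt-26 (115.9) and mdt-4 (41.6). The mdt-4 peak overlapped a stronger intronic one. There was 1 each among 29 aminoacyl-tRNA synthetases (iars-2, 163.3), 69 cell cycle and DNA replication genes (mcm-4, 96.4), 87 chromatin genes (set-17, 96.6) and 93 other cuticle and moulting genes (wrt-9, 96.5). None was found in 27 mitochondrial ribosomal protein, 43 muscle structure, 12 basement membrane, 10 histone or 7 vitellogenin and yolk receptor genes.

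Of the 18 peaks in 5' UTRs, 13 lay in the window of a 5' end of another transcript of the same or a neighbouring gene, which the gene-level borders did not remove. The strongest of the 18 after pck-2 were at Y92H12BR.7 (238.5 pooled, 145.5 in replicate 1, 107.1 in replicate 2) and C34C12.2 (223.7 pooled, 110.6 and 118.4). The peaks at pck-2 and Y92H12BR.7 lay in such a window, and that at C34C12.2 lay outside. Over all exonic peaks 36 (13.8%) lay in a window of this kind, and 1.85% of exonic candidates there were listed (1.3 to 2.55) against 0.886% elsewhere. Where the host gene had a listed peak in its own 5' end window, 1.77% of its exonic candidates were listed (45 of 2541, 1.29 to 2.36), against 0.871% in other genes.

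At the borders of the rule, the peaks just inside were at T10B5.4 (summit at -1020 bp from a 5' end, signal 120.2), Y38F2AL.12 (-1031 bp, 114.4), Y50D4A.1 (202 bp, 99.5) and F11G11.5 (209 bp, 112.1). Those just outside were by the 5' ends of mrpl-42 (-996 bp, 112.2), K07C5.9 (-994 bp, 112.7), agt-1 (200 bp, 98.7) and samp-1 (198 bp, 107.7), where negative values are upstream. The tagged gene Y48G9A.11 had no exonic listed peak. Its exonic candidate had a signal of 19.9, and its 1 listed peak was intronic, with 118.4.

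Exonic summits were richer in G and C than their surroundings. The bases within 50 bp of the summit held a median of 46.5% GC, 10.5 percentage points more than the flanks. The difference was 6.14 points for exonic candidates that were not listed and 10 points for all listed peaks. In the 20 strongest exonic peaks it was 5.34 points, below that of unlisted candidates. It was also 5.34 points in the 36 in both replicates' lists, against 10.5 in the 143 in neither. The difference was 12 points in coding exons, 6.10 in 5' UTRs and -0.14 in 3' UTRs. In the 50 peaks at close or overlapping pairs it was 1.89 points, and in the other 211 it was 12 points. Each replicate's own exonic list gave 9.53 points (replicate 1) and 9.04 points (replicate 2), against 6.04 and 6.52 in their unlisted candidates. Of coding-exon candidates, 0.223% were listed where the summit held under 35% GC (4 of 1795, 0.0607 to 0.570), 0.745% from 35 to 40%, 0.362% from 40 to 45%, 0.835% from 45 to 50%, 1.38% from 50 to 55% and 2.28% at 55% or more (37 of 1623, 1.61 to 3.13). Over all exonic candidates the share was 0.899% under 35%, 0.893% from 35 to 40%, 0.500% from 40 to 45%, 0.933% from 45 to 50%, 1.41% from 50 to 55% and 2.45% at 55% or more (1.77 to 3.31). The share was thus highest at the highest GC and did not rise steadily below 45%. The part of base composition in which candidates were listed was not tested.

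The X chromosome held 15 exonic peaks, and the autosomes I to V held 48, 44, 58, 49 and 47. Of exonic candidates on X, 0.356% were listed (0.200 to 0.587), against 1.06% on autosomes (0.936 to 1.20). In the other position classes the share was also lowest on X, with 2.08% against 2.60% to 3.82% on the autosomes. Replicate 1 listed 1 exonic peak on X of 106, and replicate 2 listed 5 of 90.

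In the replicates' own lists, 84 of the 261 exonic peaks (32.2%, 26.6 to 38.2) overlapped a peak of replicate 1 and 70 (26.8%) one of replicate 2, against 55.3% and 50.6% of all listed peaks. Both lists held 36 (13.8%, 9.85 to 18.6), against 37.9% of all, and neither held 143 (54.8%), against 32% of all. In the conservative list 178 (68.2%) stood unchanged, against 81.6%. The share in both lists differed by exon class. It was 8% in coding exons (16 of 200, 4.64 to 12.7), 38.1% in 3' UTRs (16 of 42, 23.6 to 54.4) and 22.2% in 5' UTRs (4 of 18).

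At a like signal, exonic peaks were in both lists about as often as others. With a pooled signal from 140 to 400, both lists held 24 of 34 exonic peaks (70.6%, 52.5 to 84.9) and 596 of 802 other listed peaks (74.3%, 71.1 to 77.3). From 110 to 140 it was 4 of 64 (6.25%) and 34 of 479 (7.10%), and from 90 to 110 it was 2 of 107 (1.87%) and 4 of 380 (1.05%). Below 60, where most peaks overlapped a stronger one and shared its listing, it was 6 of 31 and 15 of 76.

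**Figure D3:**
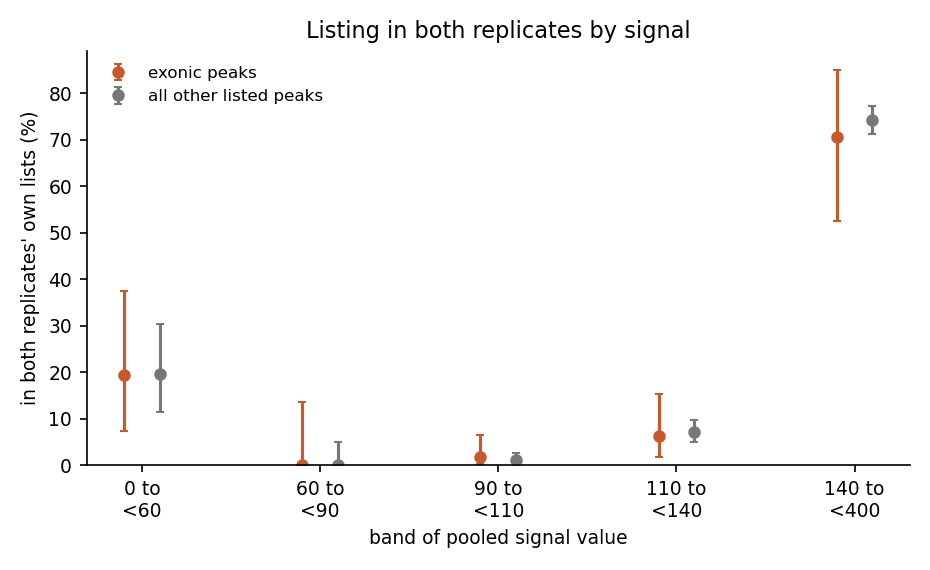
Share of listed peaks found in both replicates' own lists, by band of pooled signal, for exonic peaks and all other listed peaks, with exact 95% intervals. In every band the 2 intervals overlap, and the share rises from 6.25% and 7.10% at 110 to 140 to 70.6% and 74.3% at 140 to 400.

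For 215 exonic peaks a candidate summit lay within 100 bp in both replicates. Their signals were similar in size, with a median log2 ratio of replicate 1 to replicate 2 of -0.14 and an SD of 0.63 across peaks, and 19 (8.84%) differed more than 2-fold. The peaks were ordered differently in the replicates. Spearman's rho across these peaks was 0.19, beside 0.52 for other listed peaks in the same signal range, where 1567 had both values. The groups were matched at the ends of that range only. Signals from 140 to 400 were held by 34 of 261 exonic peaks and by 802 of 1967 other listed peaks. Whether exonic peaks were ordered less alike at a like signal was not tested. The rho values describe peaks that share libraries.

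**Figure D4:**
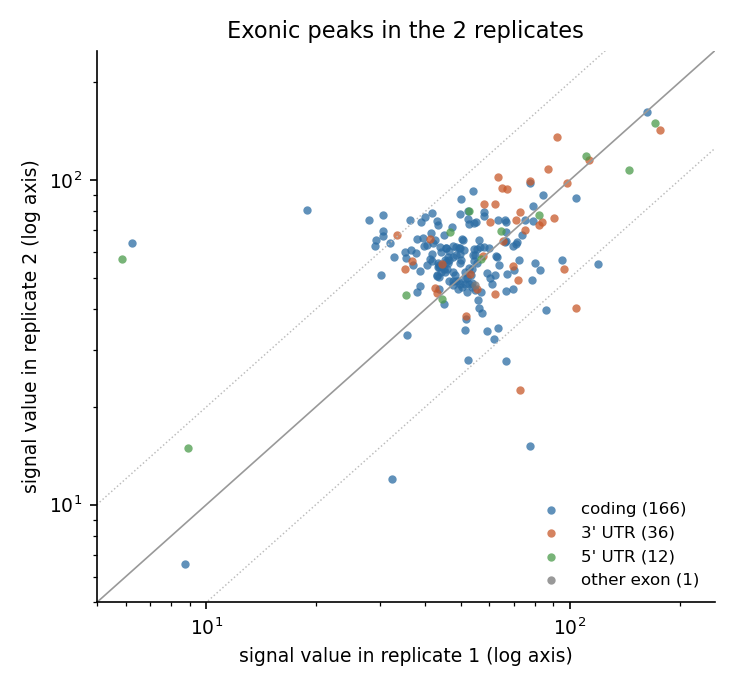
Signal value in replicate 2 against replicate 1 for the 215 exonic peaks with a candidate summit within 100 bp in both, on log axes, coloured by exon class. The solid line marks equal values and the dotted lines a 2-fold difference, which 19 peaks exceed.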

How the data were processed

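Transcription factor ChIP-seq peak lists of 2 biological replicates, numbered by the labels, were analysed. Per the labels, chromatin was sonicated to 200 to 800 bp and the build was ce11. The authors deposited a signal value for each peak, a score that is a scaled IDR (830, the lowest in each thresholded list, is an IDR of 0.01), and, in ranked lists, the −log10 of the global IDR. Which aligner and which peak caller made them is not given in the sources used here. The control is not analysed here. Depth per sample is unknown, so no interval covers it. The pooled lists join both replicates, so their signals cannot be set beside those of 1 replicate.

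Genes came from Ensembl release 115 (WBcel235, whose chromosomes are those of ce11; 19973 protein-coding), and 612 tRNA genes from RefSeq, which also gave the printed sequence. The 5' end of each gene, not of each transcript, was used. Summits were classed as near tRNA genes, in 5' end windows, exonic, intronic or intergenic, in that order, and exonic ones as coding, 5' UTR or 3' UTR, in that order. The host is the longest gene. A replicate's value is that of the nearest summit within 100 bp in its own ranked list, and listing is an overlap of at least 1 bp. Shares have exact Clopper-Pearson 95% intervals; with 1 group no test was made. Python 3.11.15, numpy 2.4.6, pandas 2.3.3, scipy 1.17.1 and matplotlib 3.10.9 were used. The classification, the neighbour search and the 6-mer ranking were tested on simulated data.

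Genes were named by rule: those of the 20 strongest exonic peaks, of the 3 strongest in each exon class, of the strongest 3 in each of 26 gene lists (symbol patterns), genes with at least 3 peaks, peaks nearest the borders, and the tagged gene. Others named are said to be chosen after their values were seen or carry a described 6-mer or pair of peaks. The members and lists were chosen with earlier results of these data known.

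Alternatives covered the conservative list, the stronger peaks, other 5' end windows, single replicates, other overlaps and a wider summit window. Chosen after seeing the data were transcript 5' ends, leaving out peaks that overlap a stronger one, leaving out X, and all counts by the next gene past the 3' end.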

Additional observations from a re-analysis of the deposited data

How the results depend on the processing

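The number of exonic peaks stayed within 1.5 times of 261 under 7 of 10 alternatives. The stronger 50% of all listed peaks held 45, of which 48.9% lay in coding exons and 57.8% were in both replicates' lists; they made up 0.165% of exonic candidates, with a median signal of 152.2 and a GC difference of 5.54 points. Without replicate 1 or replicate 2, the single lists held 90 to 106 exonic peaks, 0.335% to 0.428% of their candidates, with a median signal of 66.6 to 73.2 on the single-replicate scale, 66.0% to 70% in coding exons and a GC difference of 9.04 to 9.53 points. The share of exonic candidates listed was 0.886% with the 5' ends of all transcripts, 0.842% without peaks that overlap a stronger one and 1.06% without X, all 3 chosen after seeing the data. Without X the GC difference was 10.1 points. With windows of 2000 bp upstream, 9.60% of exonic peaks were in both lists, 81.3% lay in coding exons and the GC difference was 11.9 points. Counting 100 bp on either side of the summit gave a GC difference of 8.96 points and ACGCGC in 3.07% of exonic peaks. The other 48 of 73 values under alternatives stayed close to the reported value: within 1.5 times for the number of peaks, within the exact interval for the share in both lists, and within 1 SD of the replicates for the rest. Counting the 4 exonic candidates past the IDR threshold that were not listed, also chosen after seeing the data, gave 0.970% of exonic candidates. No paired analysis was possible because there is 1 group only. Depth is unknown and the control was not used here, so weak peaks, most of which no single replicate listed, are the least certain.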
